A study of Mus musculus with 30 samples.

Results

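Genes listed as replication-coupled histone chaperones were set against the places where replication starts in mouse embryonic stem cells. The 10 genes were listed by name and were Chaf1a, Chaf1b, Asf1a, Asf1b, Nasp, Tonsl, Mms22l, Supt16, Ssrp1 and Hat1. All 10 were found, as protein-coding genes on 8 chromosomes, among 20554 protein-coding genes of chromosomes 1 to 19 (RefSeq positions, GRCm38.p6, the same assembly as mm10). The positions of initiation zones came from 1 OK-seq library of wild-type E14TG2a cells, a long-established line of mouse embryonic stem cells. They were kept in 2i/LIF medium, which holds inhibitors of the kinases GSK3 and MEK, and were labelled with the thymidine analogue EdU at 10 µM for 2 min. OK-seq reads the strand of Okazaki fragments and so shows where leftward and rightward forks part. The other 29 samples of the series, SCAR-seq libraries and inputs of wild-type cells and of 2 clones with the histone-binding mutant MCM2-2A, were not analysed here. Since 1 library was used, no groups were compared, replicate error could not be had, and every value below describes that library. The zone list holds positions and no read counts, and its depth is unknown.

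When a fork passes, nucleosomes ahead of it are taken apart and rebuilt on both daughter strands from recycled old histones and newly made ones. New H3 and H4 are acetylated on H4 by HAT1, kept soluble by NASP, handed over by ASF1 and placed on DNA by CAF-1, which binds the sliding clamp PCNA. FACT handles both H2A-H2B and H3-H4 and works together with the helicase subunit MCM2, the subunit changed in the mutant of this series. TONSL reads H4 that is unmethylated at K20, a mark of new histones, and acts with MMS22L at damaged or stalled forks. These roles are known for the proteins and say nothing of where their genes replicate.

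Of the 10 chaperone genes, 5 had an end in initiation zones. The listed pairs of CAF-1, ASF1 and FACT each had a gene inside and a gene outside, whereas Tonsl and Mms22l were both outside. With 5 of 10 genes inside, split pairs would be common in any pairing, and the splits were not tested. They also depend on the rule: both CAF-1 genes were within 20 kb, and the start of Supt16 was outside its zone. An end of Chaf1b, Asf1b, Nasp, Supt16 and Hat1 was inside a zone, which is 5 of 10 genes, against 32.4% of all protein-coding genes, a share that would give 3.24 of 10. Chaf1a lay 13.4 kb from a zone edge, so that 6 of 10 genes were within 20 kb, against 38.5% of all protein-coding genes (3.85 of 10). Ssrp1, Tonsl, Mms22l and Asf1a lay 198, 205, 241 and 878 kb from the nearest zone edge. The median distance to a zone edge was 6.71 kb for the 10 genes and 71.2 kb for all protein-coding genes. The median of the 10 is midway between 0 and the 13.4 kb of Chaf1a, and it was 202 kb when zones narrower than the median zone were left out. With 10 genes, the difference from the share of all genes amounts to fewer than 2 genes inside zones, and it is not a result about these genes. The median length was 24.9 kb for the chaperone genes, 6 of 10 being above the 17.6 kb median of all protein-coding genes. Other protein-coding genes within 500 kb had a median of 26 for the chaperone genes, 6 of 10 being above the median of 16 for all protein-coding genes. The part of length and gene density in the distances was not tested. The 10 genes were chosen by function and with earlier results of these data known.

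**Figure D1:**
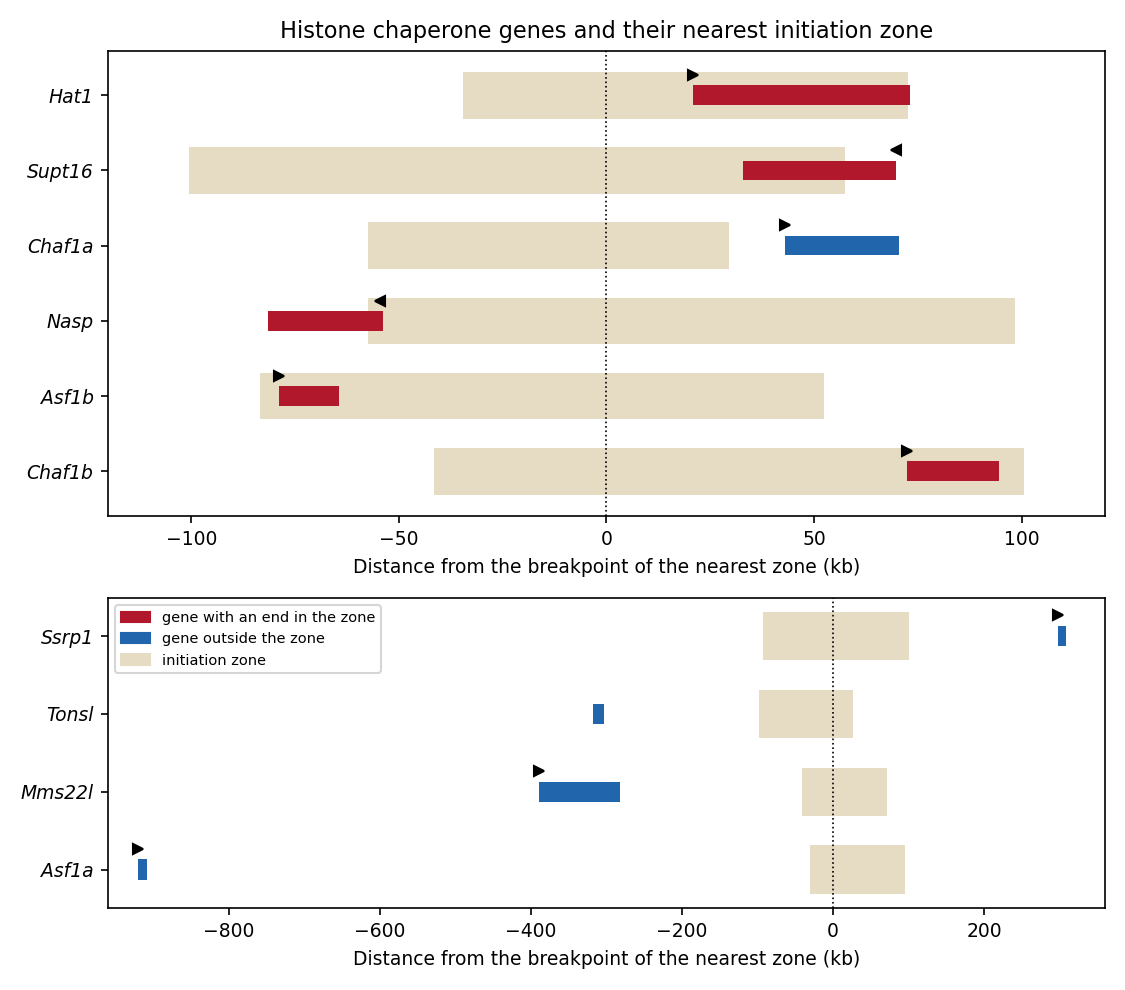
Each of the 10 chaperone genes (narrow bars, red with an end in a zone, blue outside) is drawn at its distance in kb from the breakpoint of its nearest zone (dotted line), with the zone in beige and an arrowhead at the start of transcription where strand was given. The upper panel holds the 5 genes with an end in a zone and Chaf1a, 13.4 kb outside; the lower panel, on a wider axis, holds the 4 genes 198 to 878 kb away.

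A breakpoint is the 1 kb bin where leftward and rightward forks part, and the zone runs from it to a left and a right edge. Left and right follow chromosome coordinates, and the middle of the bin was taken as the breakpoint. The 2 large subunits of CAF-1, the chaperone that deposits new H3-H4 at the fork, gave 1 gene inside a zone and 1 outside. Chaf1b (chromosome 16, 93883900 to 93906115) lay wholly inside the zone from 93770001 to 93912000, on its right arm, with ends 72.4 and 94.6 kb from the breakpoint and 5.89 kb between its 3′ end and the zone edge. That zone was 141 kb wide, wider than 77.0% of zones, with a left arm of 41 kb and a right arm at the list's limit of 100 kb, beyond which the list places no edge. Chaf1a (chromosome 17, 56040416 to 56068026) began 13.4 kb beyond the right edge of the zone from 55940001 to 56027000, and its start was 42.9 kb from the breakpoint. This zone was narrow, at 86 kb (wider than 27.7% of zones), with arms of 57 and 29 kb. Chaf1a was thus closer to its breakpoint than Chaf1b, although Chaf1b was the gene inside a zone. Both genes are transcribed to the right, away from the breakpoint. The third subunit, encoded by Rbbp4, had an end 1.10 kb from a zone edge and 31.6 kb from a breakpoint.

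The 250 bases before the start of transcription (RefSeq, GRCm38.p6) are shown for both CAF-1 genes, because their starts are the nearest points of the genes to the breakpoints. Capitals mark CCAAT or its reverse complement ATTGG, the letters read by NF-Y, and also GGGCGG or its reverse complement CCGCCC, the GC box. For Chaf1b the last base is left out, since it lies in the annotated gene, and 249 bases are shown.
Chaf1a, chr17:56040166-56040415, plus strand: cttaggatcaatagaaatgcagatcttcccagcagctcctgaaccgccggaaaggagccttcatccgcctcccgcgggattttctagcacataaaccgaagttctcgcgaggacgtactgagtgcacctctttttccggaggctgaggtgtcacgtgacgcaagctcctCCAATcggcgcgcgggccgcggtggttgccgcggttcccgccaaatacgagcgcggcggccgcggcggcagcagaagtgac
Chaf1b, chr16:93883651-93883899, plus strand: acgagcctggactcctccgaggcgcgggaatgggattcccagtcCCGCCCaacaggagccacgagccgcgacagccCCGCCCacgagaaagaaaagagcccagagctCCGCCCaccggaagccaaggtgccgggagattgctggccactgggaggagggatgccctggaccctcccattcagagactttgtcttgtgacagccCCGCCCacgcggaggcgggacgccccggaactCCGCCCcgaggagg
Chaf1b held 5 GC boxes and no CCAAT, whereas Chaf1a held 1 CCAAT and no GC box.

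The ASF1 paralogues, which pass H3-H4 to CAF-1, were placed differently, with Asf1b inside a zone and Asf1a the member farthest from any. Asf1b (chromosome 8, 83955694 to 83970195) lay wholly inside the zone from 83951001 to 84087000, near its left edge. Its start was 4.69 kb from that edge and 78.8 kb from the breakpoint, and its 3′ end was 64.3 kb from the breakpoint. The zone was 135 kb wide, wider than 71.4% of zones, with a left arm of 83 kb and a right arm of 52 kb. Asf1b is transcribed to the right and therefore towards the breakpoint. Asf1a (chromosome 10, 53596961 to 53609225) was 878 kb from the nearest zone edge and 908 kb from the breakpoint on its right, and the next zone on its left was 1194 kb away. Of all protein-coding genes, 96.0% lay nearer to a zone and 3.97% farther. It overlapped Mcm9, a gene of the MCM helicase family, which was itself 857 kb from a zone edge.

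HAT1 and NASP act on new histones before they reach ASF1, and both genes had an end in a zone. Hat1 (chromosome 2, 71389260 to 71441622) was the member nearest to a breakpoint, with its start 20.8 kb to the right of it. It filled most of the right arm of the zone from 71334001 to 71441000. Of its bases, 98.8% were inside, and its 3′ end passed the edge by 0.622 kb, less than the 1 kb bin of the list. The zone was 106 kb wide (34 kb left, 72 kb right), the only zone with a member that was narrower than the median zone. Because its arms were unequal, the start of Hat1 was 1.76 kb from the point midway between the zone edges. Nasp (chromosome 4, 116601052 to 116628676) had its 5′ end inside the zone from 116625001 to 116781000 and only 13.3% of its bases. That end was 3.68 kb within the left edge and 53.8 kb from the breakpoint. Its zone was 155 kb wide, wider than 88.1% of zones, with arms of 57 and 98 kb, and Nasp lay on the shorter arm. Both genes are transcribed away from the breakpoint.

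The same 250 bases are shown for Asf1b and Hat1, whose starts lay in zones at 78.8 and 20.8 kb from the breakpoint, with capitals as above. No sequence is shown for the other members.
Asf1b, chr8:83955444-83955693, plus strand: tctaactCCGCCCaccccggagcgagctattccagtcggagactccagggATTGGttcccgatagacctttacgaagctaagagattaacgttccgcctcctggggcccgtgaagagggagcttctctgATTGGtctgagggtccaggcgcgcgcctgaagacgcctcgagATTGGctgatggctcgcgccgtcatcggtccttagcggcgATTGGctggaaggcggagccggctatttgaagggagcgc
Hat1, chr2:71389010-71389259, plus strand: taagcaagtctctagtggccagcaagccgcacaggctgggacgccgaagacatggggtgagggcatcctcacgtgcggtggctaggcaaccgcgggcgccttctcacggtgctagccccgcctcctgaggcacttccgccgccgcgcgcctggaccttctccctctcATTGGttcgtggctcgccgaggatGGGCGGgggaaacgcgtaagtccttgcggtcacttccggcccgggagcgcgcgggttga
Asf1b held 4 CCAAT matches and 1 GC box, and Hat1 held 1 of each. Among the 9 members with a promoter in the table, 5 held CCAAT (Chaf1a, Asf1a, Asf1b, Nasp and Hat1), against 36.3% of 16456 protein-coding promoters, and 6 held a GC box, against 43.6%. The Asf1a window lies wholly in Mcm9 and the Nasp window wholly in the annotated Nasp gene. Most of the Ssrp1 window lies in P2rx3. All of these windows were counted. No member held TTTCGCGC, TTTGGCGC, TTTCCCGC or TTTGCCGC on either strand, 8-letter forms of the E2F motif that 2.44% of promoters held. Other forms of the motif were not searched for, in Chaf1a or in any other member. The absence of these forms therefore does not show that the members lack E2F motifs. A match is not a site, and no match says only that these letters are not in this window. The median CpG observed-to-expected ratio was 0.946 for the members, against 0.556 for all promoters, and all 9 members were above the median of all promoters. Their median GC content was 63.6%, against 55.6% for all promoters, and 7 of 9 were above that median.

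FACT has 2 subunits, and again 1 gene had an end in a zone and 1 lay outside. Supt16 (chromosome 14, 52160419 to 52197239) had its 3′ end inside the zone from 52027001 to 52185000, 32.9 kb to the right of the breakpoint, and 66.8% of its bases. Its start lay 12.2 kb beyond the right edge, so Supt16 was the only member in a zone by its 3′ end alone, and it is transcribed towards the breakpoint. The zone was 157 kb wide (wider than 89.0% of zones), with a left arm at the 100 kb limit and a right arm of 57 kb. Ssrp1 (chromosome 2, 85037120 to 85047114) lay 198 kb to the right of the zone from 84646001 to 84839000 and 299 kb from its breakpoint. That zone was among the widest, at 192 kb (wider than 98.1% of zones), with arms of 92 kb and 100 kb. To the right of Ssrp1 the next zone was 2358 kb away. Of all protein-coding genes, 29.6% lay farther from a zone than Ssrp1 did.

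The genes of the TONSL-MMS22L complex were both outside zones. Tonsl (chromosome 15, 76626237 to 76639929) lay between zones at 220 kb on its left and 205 kb on its right. The nearer edge belonged to the right zone, 124 kb wide, with arms of 98 and 26 kb, but the nearer breakpoint was the left one, at 280 kb. Mms22l (chromosome 4, 24496451 to 24602950), at 106.5 kb the longest of the 10 genes, had its 3′ end 241 kb from the zone on its right and its start 348 kb from it. The next zone on the left of Mms22l was 2656 kb away. The nearest zone of Mms22l was 112 kb wide, the median of all zones. Members were not close to each other. Nasp and Mms22l lay 92.0 Mb apart on chromosome 4, and Hat1 and Ssrp1 lay 13.6 Mb apart on chromosome 2. No 2 members shared a zone.

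**Figure D2:**
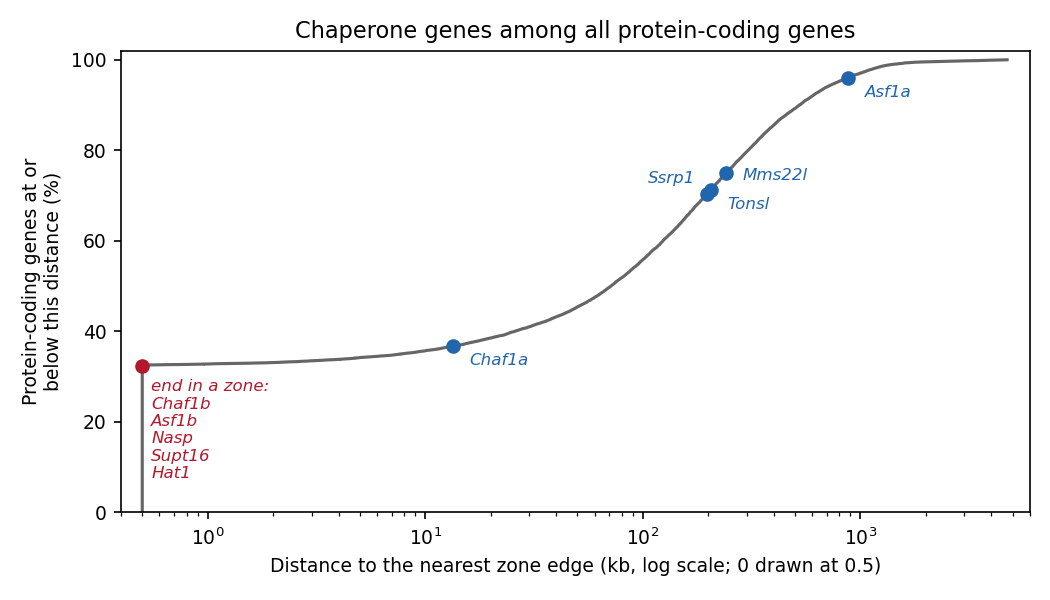
The curve gives the percentage of 20554 protein-coding genes at or below each distance to the nearest zone edge (kb, log scale, with 0 drawn at 0.5), and points mark the chaperone genes. There 5 of the 10 sit at 0 with 32.4% of all genes, Chaf1a follows at 13.4 kb, Ssrp1, Tonsl and Mms22l stand together at 198 to 241 kb, and Asf1a is at 878 kb.

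Most members in zones sat towards the outside of the arm rather than near the breakpoint. The nearer end of the 5 genes was 20.8 kb (Hat1), 32.9 kb (Supt16), 53.8 kb (Nasp), 64.3 kb (Asf1b) and 72.4 kb (Chaf1b) from the breakpoint, a median of 53.8 kb, against 23.1 kb for all protein-coding genes with an end in a zone. All 5 were over 20 kb away, against 56.0% of those genes. The zones of the 5 had a median width of 141 kb, against 112 kb for all zones. The part of zone width in these distances was not tested. In terms of the arm, the nearer end stood at 28.8% of the way from breakpoint to edge in Hat1, 57.8% in Supt16, 72.4% in Chaf1b, 77.5% in Asf1b and 94.4% in Nasp. Thus 4 of 5 were beyond the middle of their arm, against 41.2% of genes with an end in a zone. None of the 10 members had a breakpoint in its body, against 4.02% of all protein-coding genes. The whole gene was inside the zone for Chaf1b and Asf1b, 2 of 5, against 57.5% of genes with an end inside. The start of transcription was in a zone for 4 of 9 members with strand (Chaf1b, Asf1b, Nasp and Hat1), against 27.8% of 16456 genes. The position along the arm and the count beyond 20 kb were picked after the positions were seen, and all of these shares rest on 5 to 10 genes and were not tested.

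Transcription followed the direction of the forks that leave the breakpoint in 3 of the 5 genes in zones. Chaf1b, Nasp and Hat1 run away from the breakpoint, and Asf1b and Supt16 run towards it. Of 4764 protein-coding genes with an end in a zone and the whole body on 1 side of the breakpoint, 60.0% run away, so the members stood at the share of all such genes. The list gives no fork direction beyond the zone edges, and the direction of replication through the 4 distant genes was not analysed here.

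Zones with a member were mostly wide. Their widths were 106, 135, 141, 155 and 157 kb, with a median of 141 kb, against a median of 112 kb and quartiles of 82 and 138 kb over all 2844 zones. An arm stood at the 100 kb limit in 2 of the 5 (those of Chaf1b and Supt16), against 9.56% of zones. A wider zone has more room for a gene end, and the part this plays in the widths was not tested. Members sat on the longer arm in Chaf1b, Asf1b and Hat1 and on the shorter arm in Nasp and Supt16.

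**Figure D3:**
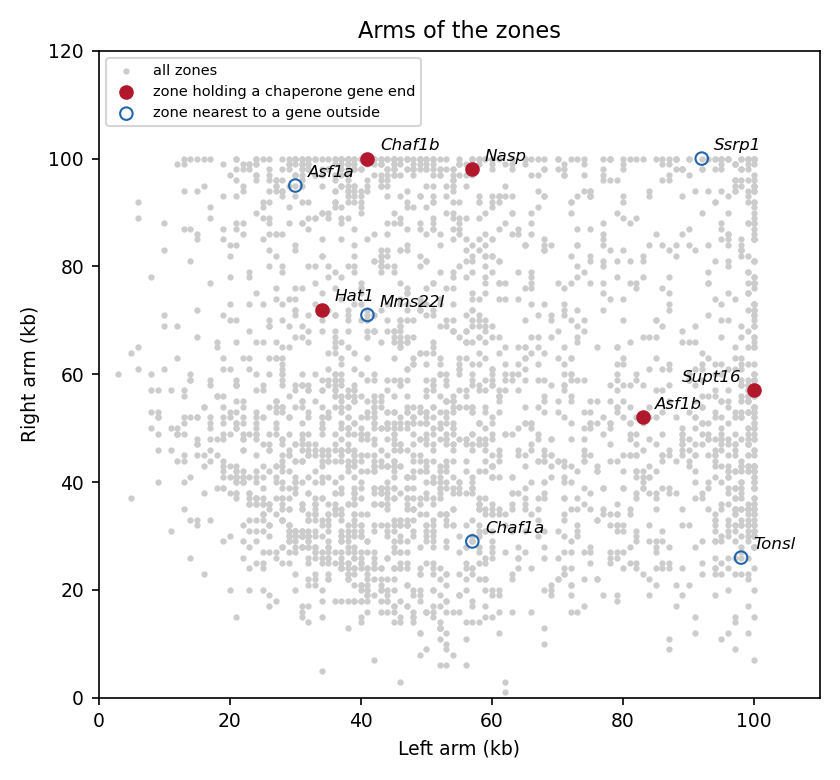
Each grey point is 1 of the 2844 zones, placed by its left and right arm in kb; red points are the 5 zones that hold a chaperone gene end and open blue circles the zones nearest to the 5 genes outside. The Chaf1b and Supt16 zones stand at the 100 kb limit of 1 arm, and the Hat1 zone is the smallest of the 5, at 34 and 72 kb.

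The zones of Asf1b and Nasp held more genes than most, and that of Hat1 held 2, the median number. Over all zones the median number of protein-coding genes with an end inside was 2, with quartiles of 1 and 3. Zones picked for holding a given gene are more often those with many genes, and the part this plays in the counts was not tested. The Asf1b zone held 9, more than 97.8% of zones had, and Asf1b was the farthest of them from the breakpoint. The breakpoint lay in the body of Il27ra, a receptor subunit for interleukin 27, and the nearest end was that of Palm3 at 3.83 kb, followed by Il27ra at 4.22 kb, the relaxin gene Rln3 at 8.57 kb and Misp3 at 22.8 kb. Between Asf1b and the breakpoint on the same arm lay Prkaca, the catalytic subunit gene of protein kinase A, 2.78 kb from Asf1b and transcribed in the same direction. The Nasp zone held 6 genes, of which Nasp was again the farthest from the breakpoint. Prdx1, a peroxiredoxin gene, stood 3.10 kb to the right of the breakpoint and is transcribed to the right, and Akr1a1, an aldo-keto reductase gene, stood 30.8 kb to its left and is transcribed to the left, as Nasp is. Mmachc, a gene of cobalamin processing, and Ccdc163 lay between them in distance, at 19.9 and 25.8 kb.

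The other 3 zones with a member held between 2 and 4 genes. In the Hat1 zone the single other gene was Slc25a12, which encodes a mitochondrial aspartate-glutamate carrier. Its start was 0.720 kb from the breakpoint, and it runs to the left while Hat1 runs to the right, so the breakpoint lay between 2 genes transcribed away from it. In the Chaf1b zone the breakpoint lay 0.912 kb past the 3′ end of Dop1b, and Morc3, at 20.6 kb, and Chaf1b followed in the same orientation. The Supt16 breakpoint lay in the body of Rpgrip1, a gene of the photoreceptor cilium whose 3′ end overlaps that of Supt16, and the other genes were Hnrnpc, an RNA-binding protein gene at 23.5 kb, and the olfactory receptor gene Olfr221 at 91.4 kb. Beyond the edge of that zone, 0.912 kb from Supt16, lay Chd8, a chromatin remodeller gene, 13.2 kb outside. The zone nearest to Chaf1a held 8 genes but not Chaf1a itself. Its breakpoint lay in Stap2, an adaptor protein gene, and close to Fsd1 (0.618 kb), with Mpnd at 11.7 kb and the endophilin gene Sh3gl1 at 19.3 kb. Sh3gl1 reached from inside this zone to 3.76 kb from Chaf1a.

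**Figure D4:**
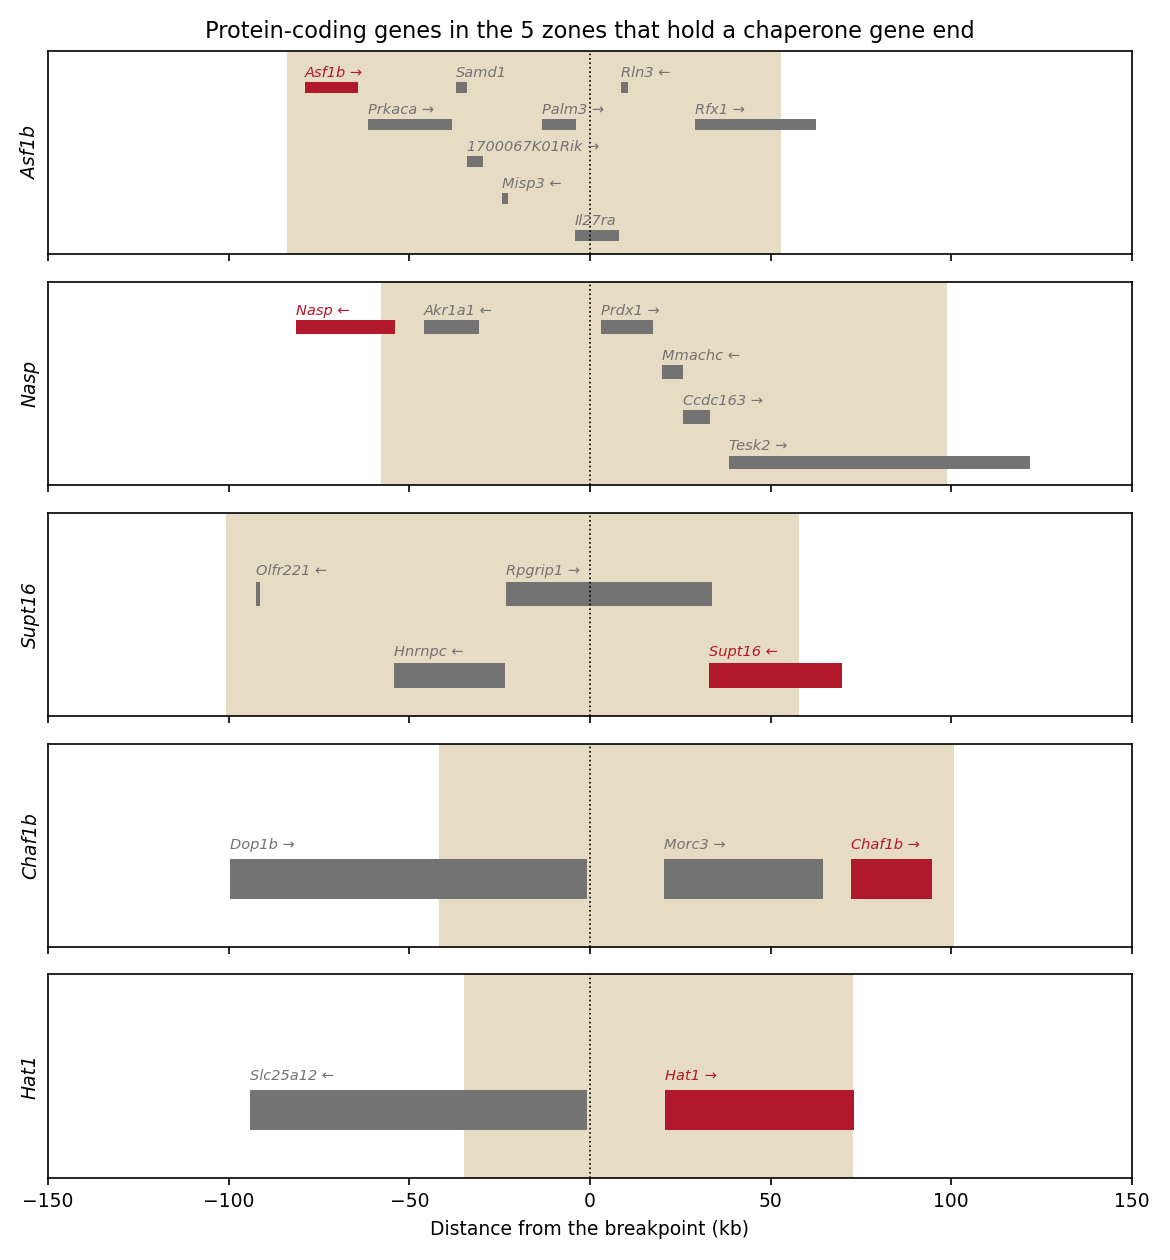
For each of the 5 zones that hold a chaperone gene end (beige), protein-coding genes with an end inside are drawn at their distance in kb from the breakpoint (dotted line), the chaperone gene in red and others in grey, with an arrow for the direction of transcription where strand was given. Asf1b and Nasp are the outermost genes on the left of zones with 9 and 6 genes, while Hat1 shares its zone with Slc25a12 alone.

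The wider surroundings also split the members. Breakpoints within 1 Mb of the gene midpoint numbered 5 for Tonsl, 4 for Chaf1a and Nasp, 3 for Asf1b, Supt16 and Hat1, 2 for Chaf1b, and 1 for Asf1a, Mms22l and Ssrp1, against a median of 3 and quartiles of 2 and 4 for all protein-coding genes. Other protein-coding genes within 500 kb numbered 47 for Tonsl and 3 for Mms22l, the highest and lowest of the 10. Tonsl, the member with most genes and breakpoints around it, was nevertheless outside zones. The breakpoints on either side of Asf1a, Asf1b, Ssrp1 and Mms22l were 2207, 2157, 2764 and 3138 kb apart, so 4 of 10 members lay between breakpoints over 2 Mb apart, against 14.7% of protein-coding genes. Asf1b differs from the other 3 in that it lies at the border of this interval, 71.6 kb from the breakpoint on its right and 2085 kb from that on its left. The limit of 2 Mb was chosen after the values were seen.

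Other genes of the pathway were set beside the 10 chaperone genes in 3 lists. The lists were chosen with earlier results of these data known. The fork partners were a list of fork proteins and of partners of the chaperones or histones. Of these, 9 of 18 had an end in a zone, against 32.4% of all protein-coding genes. Within 20 kb of a zone were 12 of the 18, against 38.5% of all protein-coding genes. The pair Pola1 and Rbbp7 of that list does not lie on chromosomes 1 to 19 and was left out. Rpa2, of the single-strand binding protein RPA, had an end 0.860 kb from a breakpoint. The fork protection gene Tipin (8.99 kb), Tlk2, a kinase of ASF1 (12.4 kb), and Rpa3 (12.4 kb) followed, and Mcm2 had an end 14.0 kb from one. Mcm3 was farthest, 385 kb from a zone edge. Of the list for chaperones that act outside replication, 11 of 19 were inside (Atrx is not on these chromosomes) and 12 within 20 kb. Mcm3ap is counted in this list, although its product is known as a partner of the helicase subunit MCM3 and not as an established histone chaperone. Hjurp, the CENP-A chaperone (0.143 kb), Mcm3ap (5.40 kb), Ubn2 of the HIRA complex (7.74 kb) and Nap1l4 (7.92 kb) were nearest to a breakpoint, and Anp32b was farthest, at 565 kb from a zone edge. Of the nucleosome remodellers, 5 of 10 were inside and 6 within 20 kb, with Chrac1 (6.43 kb) nearest to a breakpoint, then Smarca5, Chd4 (25.5 kb) and Smarcad1 (27.1 kb), and with Baz1b 374 kb from a zone edge. The median distance to the nearest breakpoint was 68.4 kb for the 10 chaperone genes, 47.0 kb for the fork partners, 65.9 kb for the other chaperones and 65.8 kb for the remodellers, against 129 kb for all protein-coding genes. An end was in a zone for 5 of the 10 chaperone genes (50.0%), for 25 of 47 genes of the pooled 3 lists (53.2%) and for 32.4% of all protein-coding genes. When zones narrower than the median zone were left out, 4 of the 10 chaperone genes were inside, against 20.1% of all protein-coding genes. The lists then had 5 of 18 fork partners, 4 of 19 other chaperones and 2 of 10 remodellers inside. All 3 lists thus stood nearer to the share of all genes than they did with all zones. None of these shares was tested.

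**Figure D5:**
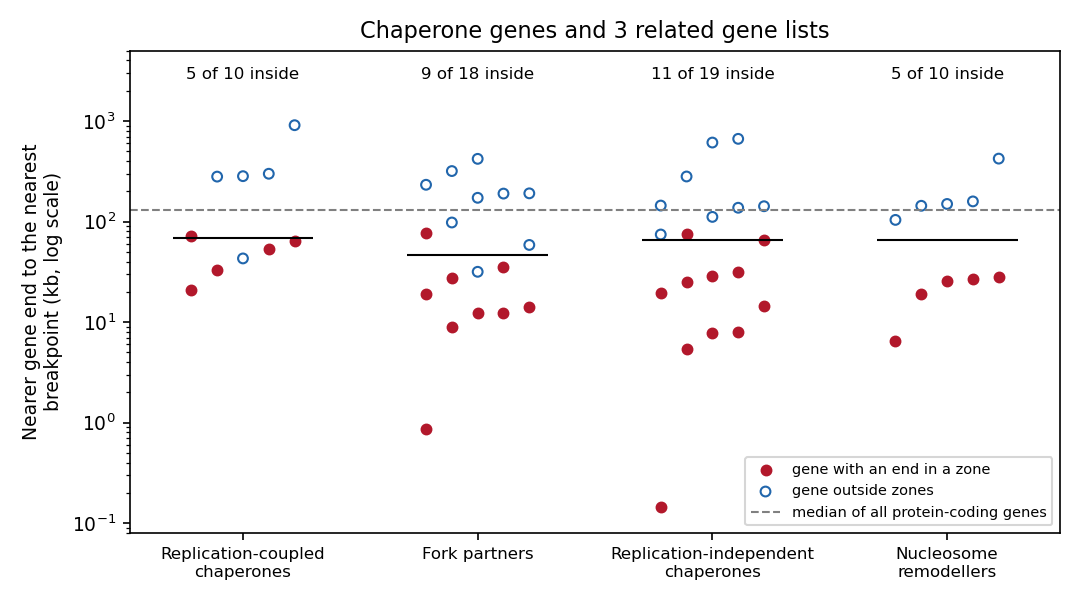
Each point is 1 gene, placed by the distance in kb of its nearer end to the nearest breakpoint (log scale), red with an end in a zone and open blue without; bars are list medians and the dashed line is the median of all protein-coding genes (129 kb). The gene nearest to a breakpoint is Hat1 (20.8 kb) among the replication-coupled chaperones and Rpa2 (0.860 kb) among the fork partners. It is Hjurp (0.143 kb) among the replication-independent chaperones and Chrac1 (6.43 kb) among the remodellers. Each value rests on a single gene, and the differences were not tested.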

How the data were processed

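OK-seq of 1 wild-type library was used. Build mm10 and the tools Trim Galore 0.4.2, BWA 0.7.13, Bowtie, SAMtools, Picard 2.8.2 and bcl2fastq are named per the submitters' processing notes. Which tool did what, and the zone caller, were not given in the sources used here. Each line of the list gives a breakpoint bin; per the file headers, the other deposited values are distances in bp from each breakpoint to a minimum on its left and a maximum on its right, their sum as the zone size, and the distance to the nearest breakpoint, with no counts or scores. In all 2844 entries the size equalled the sum of the arms. Zones lie on chromosomes 1 to 19, and no arm exceeds 100 kb, so long zones may be shortened.

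Gene positions came from a RefSeq table of GRCm38.p6. Genes on scaffolds (333, taken as those starting before 3 Mb or after the first drop in start position) were left out, which left 46705 genes. Strand and promoters came from a RefSeq promoter table (16456 protein-coding genes, most upstream start; 9 of 10 members matched, all but Tonsl). A gene was inside a zone if either end was. Distances were computed with Python 3.11.15, pandas 2.3.3 and NumPy 2.4.6, in code checked on made-up positions, and figures drawn with matplotlib 3.10.9. Members and lists were chosen with earlier results of these data known. Besides the 10 members, up to 4 genes nearest to the breakpoint were named in each zone and list, with the farthest gene of each list and Mcm2. Some other neighbours (Rbbp4, Mcm9, Prkaca and Chd8) were named after their values were seen. No test was possible with 1 library. Alternatives were other zone sets, gene points and distance limits.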

Additional observations from a re-analysis of the deposited data

How the results depend on the processing

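No paired analysis was possible because 1 library was used; for the same reason no replicate could be left out. The count of chaperone genes inside zones was 5 with zones less than 10 kb apart merged (against 32.4% of protein-coding genes), with any base of the body (32.9%) and within 5 kb (34.2%), 4 when zones narrower than the median were left out (20.1%), with gene midpoints (22.5%) and with starts of transcription alone (9 genes, 27.8%), and 6 within 20 kb (38.5%) or 50 kb (45.4%). Their median distance to a zone edge was 202 kb with wide zones, 18.7 kb with gene midpoints and 12.2 kb with starts (9 genes, without Tonsl). Chaf1a lay 2440 kb and Hat1 948 kb from a wide zone. The median distance to a breakpoint was 65.6 kb with the point midway between edges, 77.5 kb with gene midpoints and 72.4 kb with starts. With wide zones, 5 of 18 fork partners, 4 of 19 other chaperones and 2 of 10 remodellers were inside, and 3 of 10 remodellers with gene midpoints. Counting genes of all kinds, 31 shared a zone with a member, against 19 protein-coding genes. The median zone with a member was 135 kb wide without zones at the 100 kb limit, against 106 kb for all such zones. The depth of the library is unknown, positions are no finer than 1 kb, and 10 genes set the precision of every share.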
